A study of Mus musculus with 192 samples.

Results

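The interleukins IL-12, IL-23, IL-27 and IL-10 are encoded by Il12a, Il12b, Il23a, Il27, Ebi3 and Il10. These 6 genes were taken by name from the 23481 genes of a table of UMI counts, and all 6 had a row in it. A UMI (unique molecular identifier) marks 1 original cDNA molecule. The RNA came from dendritic cells grown from the bone marrow of female C57BL/6J mice aged 6 to 8 weeks in medium with 15 ng/mL GM-CSF, plated at 100000 cells per well and stimulated for 6 hours. The libraries form 64 groups of 3: the unstimulated Ctrl, each of 7 ligands alone, all 21 pairs and all 35 triplets. Names of ligands follow the submitters: LPS is lipopolysaccharide, and the others are PAM, HMW, Zymosan (zymosan depleted), SeV, cGAMP (3',3'-cGAMP, a cyclic dinucleotide) and CpGB. All groups share the strain, sex, culture and stimulation time. GM-CSF cultures are a mixed model: they hold cells with macrophage as well as dendritic cell features. The sources used here do not say whether the 3 libraries of a group came from separate mice or cultures, so p-values measure the spread between these libraries, which may be technical.

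The IL-12 family consists of secreted proteins made of a helical chain joined to a receptor-like chain. Il12b encodes p40, which pairs with p35 from Il12a to give IL-12 and with p19 from Il23a to give IL-23. Ebi3 encodes the receptor-like chain that pairs with p28 from Il27 to give IL-27. Dendritic cells make these cytokines after sensing microbes, and through them direct T cells: IL-12 favours Th1 responses, IL-23 sustains Th17 responses, and IL-27 both promotes and restrains T cell activity. Il10 encodes IL-10, a cytokine that restrains inflammatory gene expression, IL-12 included.

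On GRCm38, the build (mm10) named in the submitters' processing notes, the genes lie on 6 chromosomes: Il12a at chr3:68690644-68698547, Il12b at chr11:44400063-44414033, Il23a at chr10:128296139-128298752, Il27 at chr7:126589010-126594941, Ebi3 at chr17:55952640-55957022 and Il10 at chr1:131019845-131024974. Il23a and Il27 are on the minus strand and the others on the plus strand. RefSeq promoters (GRCm38.p6) were matched for 3 of the 6 genes. The 250 bases before a start site are shown for Il12b and Ebi3, whose levels ran closely together across the groups, and for the second of 2 starts of Il12a. Capitals mark GGG, any 5 bases and CC (an NF-kB motif) or GAGGAA (PU.1 and other Ets factors) on either strand; where matches overlap, their whole stretch is in capitals.
Il12b, chr11:44399813-44400062, plus strand: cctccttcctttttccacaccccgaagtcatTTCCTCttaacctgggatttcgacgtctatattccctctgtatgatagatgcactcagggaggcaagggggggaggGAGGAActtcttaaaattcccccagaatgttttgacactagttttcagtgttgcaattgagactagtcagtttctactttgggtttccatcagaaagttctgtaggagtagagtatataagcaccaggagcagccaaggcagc
Il12a, chr3:68691174-68691423, plus strand: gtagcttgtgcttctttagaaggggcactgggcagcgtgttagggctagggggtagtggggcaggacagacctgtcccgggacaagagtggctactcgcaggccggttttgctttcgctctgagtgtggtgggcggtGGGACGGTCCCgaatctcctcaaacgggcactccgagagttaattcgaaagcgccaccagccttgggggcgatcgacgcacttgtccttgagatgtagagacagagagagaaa
Ebi3, chr17:55952373-55952622, plus strand: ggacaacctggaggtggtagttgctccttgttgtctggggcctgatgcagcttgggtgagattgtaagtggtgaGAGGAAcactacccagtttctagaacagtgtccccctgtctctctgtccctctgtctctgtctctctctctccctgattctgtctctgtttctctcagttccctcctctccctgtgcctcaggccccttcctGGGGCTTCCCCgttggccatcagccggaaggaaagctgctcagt

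In these windows the Il12b promoter held GAGGAA 143 to 138 bases before the start and its reverse complement 219 to 214 bases before it. The Ebi3 window held GAGGAA 176 to 171 bases before the start and overlapping NF-kB matches 44 to 34 bases before it. The Il12a window held overlapping NF-kB matches 113 to 103 bases before the start, and the window of the other Il12a start, chr3:68690394-68690643, held no match to any of the 6 motifs searched on both strands. Among 32851 RefSeq promoters cut to the same length, 45.8% held the NF-kB letters and 23.3% held GAGGAA. The other motifs, which no window matched, were TGANTCA (AP-1, in 6.75% of promoters), TTGCNNAA (C/EBP, 9.56%), the ISRE motif (2.98%) and TTCNNNGAA (STAT, 7.02%). Matches of letters this common are a description only.

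Libraries held 46564 to 610234 counts (median 171616.5), and those of Ctrl 61823 to 89530, so a weak gene is least precisely known in Ctrl. In 8 libraries, the log2 profile over the 1500 most variable genes correlated with the other libraries of the same group by over 0.15 less than those did with each other. The largest such deficit among the remaining libraries was 0.0857. Those 8 are labelled HMW + cGAMP + CpGB replicate 1, HMW + SeV + CpGB replicate 1, PAM + HMW + Zymosan replicate 1, PAM + LPS replicate 1, Zymosan + SeV replicate 2, LPS + SeV + CpGB replicate 3, HMW + SeV + cGAMP replicate 1 and Zymosan + SeV + cGAMP replicate 1. The first 2 each resembled the other's group: the library labelled HMW + cGAMP + CpGB replicate 1 had r = 0.482 and 0.447 with the remaining libraries of HMW + SeV + CpGB, against 0.118 and 0.134 with those of its own label. Conversely, the library labelled HMW + SeV + CpGB replicate 1 had r = 0.533 and 0.519 with HMW + cGAMP + CpGB and 0.123 and 0.174 with its own label. The library labelled LPS + SeV + CpGB replicate 3 correlated more with LPS + SeV (r = 0.401 to 0.452) than with its own label (0.264 and 0.282). No library was moved or removed. For some of the calls and levels named below, values without these 8 are also given.

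To see where the genes are expressed, every stimulated group was compared with Ctrl. Levels are CPM, counts scaled to a common library size with TMM factors, as mean ± SD of 3 libraries. They are not divided by gene length, so they are compared between groups and not between genes. In pooled cells, fewer expressing cells and less RNA per cell cannot be told apart. Of 63 groups, edgeR's quasi-likelihood test called Il12a and Ebi3 higher in 49 each, Il12b in 36, Il10 in 33 and Il27 in 30, and none lower (adjusted p below 0.05 and at least a doubling, a fitted log2 of 1). Il10 had no count in Ctrl, so its fitted log2 is not a measured ratio. Among its 33 called groups, the lower exact counting limit of the ratio to Ctrl ran from 0.991 (PAM + HMW + cGAMP) to 13.01 (LPS + cGAMP + CpGB). A doubling of Il10 was thus not shown for every called group. Over all 4720 tested genes, 14.3% of comparisons with Ctrl were called higher and 9.03% lower. With a single ligand, calls were limited to Il12a and Ebi3 with PAM, LPS and CpGB and to Il12b with CpGB, beside a background of 8.7%. Without the filter on low counts Il12b was called in 45 groups, LPS alone among them (log2 2.51, adjusted p = 0.00404). With pairs the 5 tested genes were called 56 times in 105 comparisons (13.7% of comparisons over all genes), and with triplets 134 times in 175 (15.7%). Il23a did not pass the filter on low counts and is described by its counts. Without the 8 libraries above, no call was lost, and Il12b was called in 41 groups and Il27 in 35. Il27 and Il10 were the least certain: without replicate 3 of every group they were called in 19 and 20 groups, and with all libraries thinned to the smallest total neither passed the filter on low counts.

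The calls fell along a line drawn after the levels had been seen. Of the 63 groups, 49 hold PAM, LPS or CpGB and 14 hold only HMW, Zymosan, SeV or cGAMP. Il12a and Ebi3 were called in all 49 and in none of the 14. For Il12a the lowest of the 49 groups, HMW + Zymosan + CpGB (59.1 ± 8.02 CPM), stood above the highest of the 14, Zymosan + cGAMP (25.3 ± 6.36 CPM), and over all groups the lowest library of the 49 (44.2 CPM) was above the highest of the 14 (32.0 CPM). For Ebi3 the facing groups were PAM + HMW + Zymosan (142 ± 43.7 CPM; 118 CPM without replicate 1, one of the 8 libraries) and HMW + Zymosan + cGAMP (88.3 ± 25.9 CPM), and over all groups the lowest library of the 49 (102.7 CPM) was below the highest of the 14 (125.7 CPM). The 36 calls of Il12b and the 33 of Il10 all fell within the 49. Il27 kept to no such line: 26 of its 30 calls were in the 49, and 4 were in Zymosan + cGAMP, HMW + cGAMP, HMW + Zymosan + cGAMP and Zymosan + SeV + cGAMP. Il23a had 84 counts in 51 of the 147 libraries that hold PAM, LPS or CpGB and 0 in the 42 others. As background, 15.1% of comparisons over all genes were called higher in the 49 groups and 11.3% in the 14, and 13 of 4720 genes (0.275%), Il12a and Ebi3 among them, were called in all 49 and none of the 14.

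**Figure D1:**
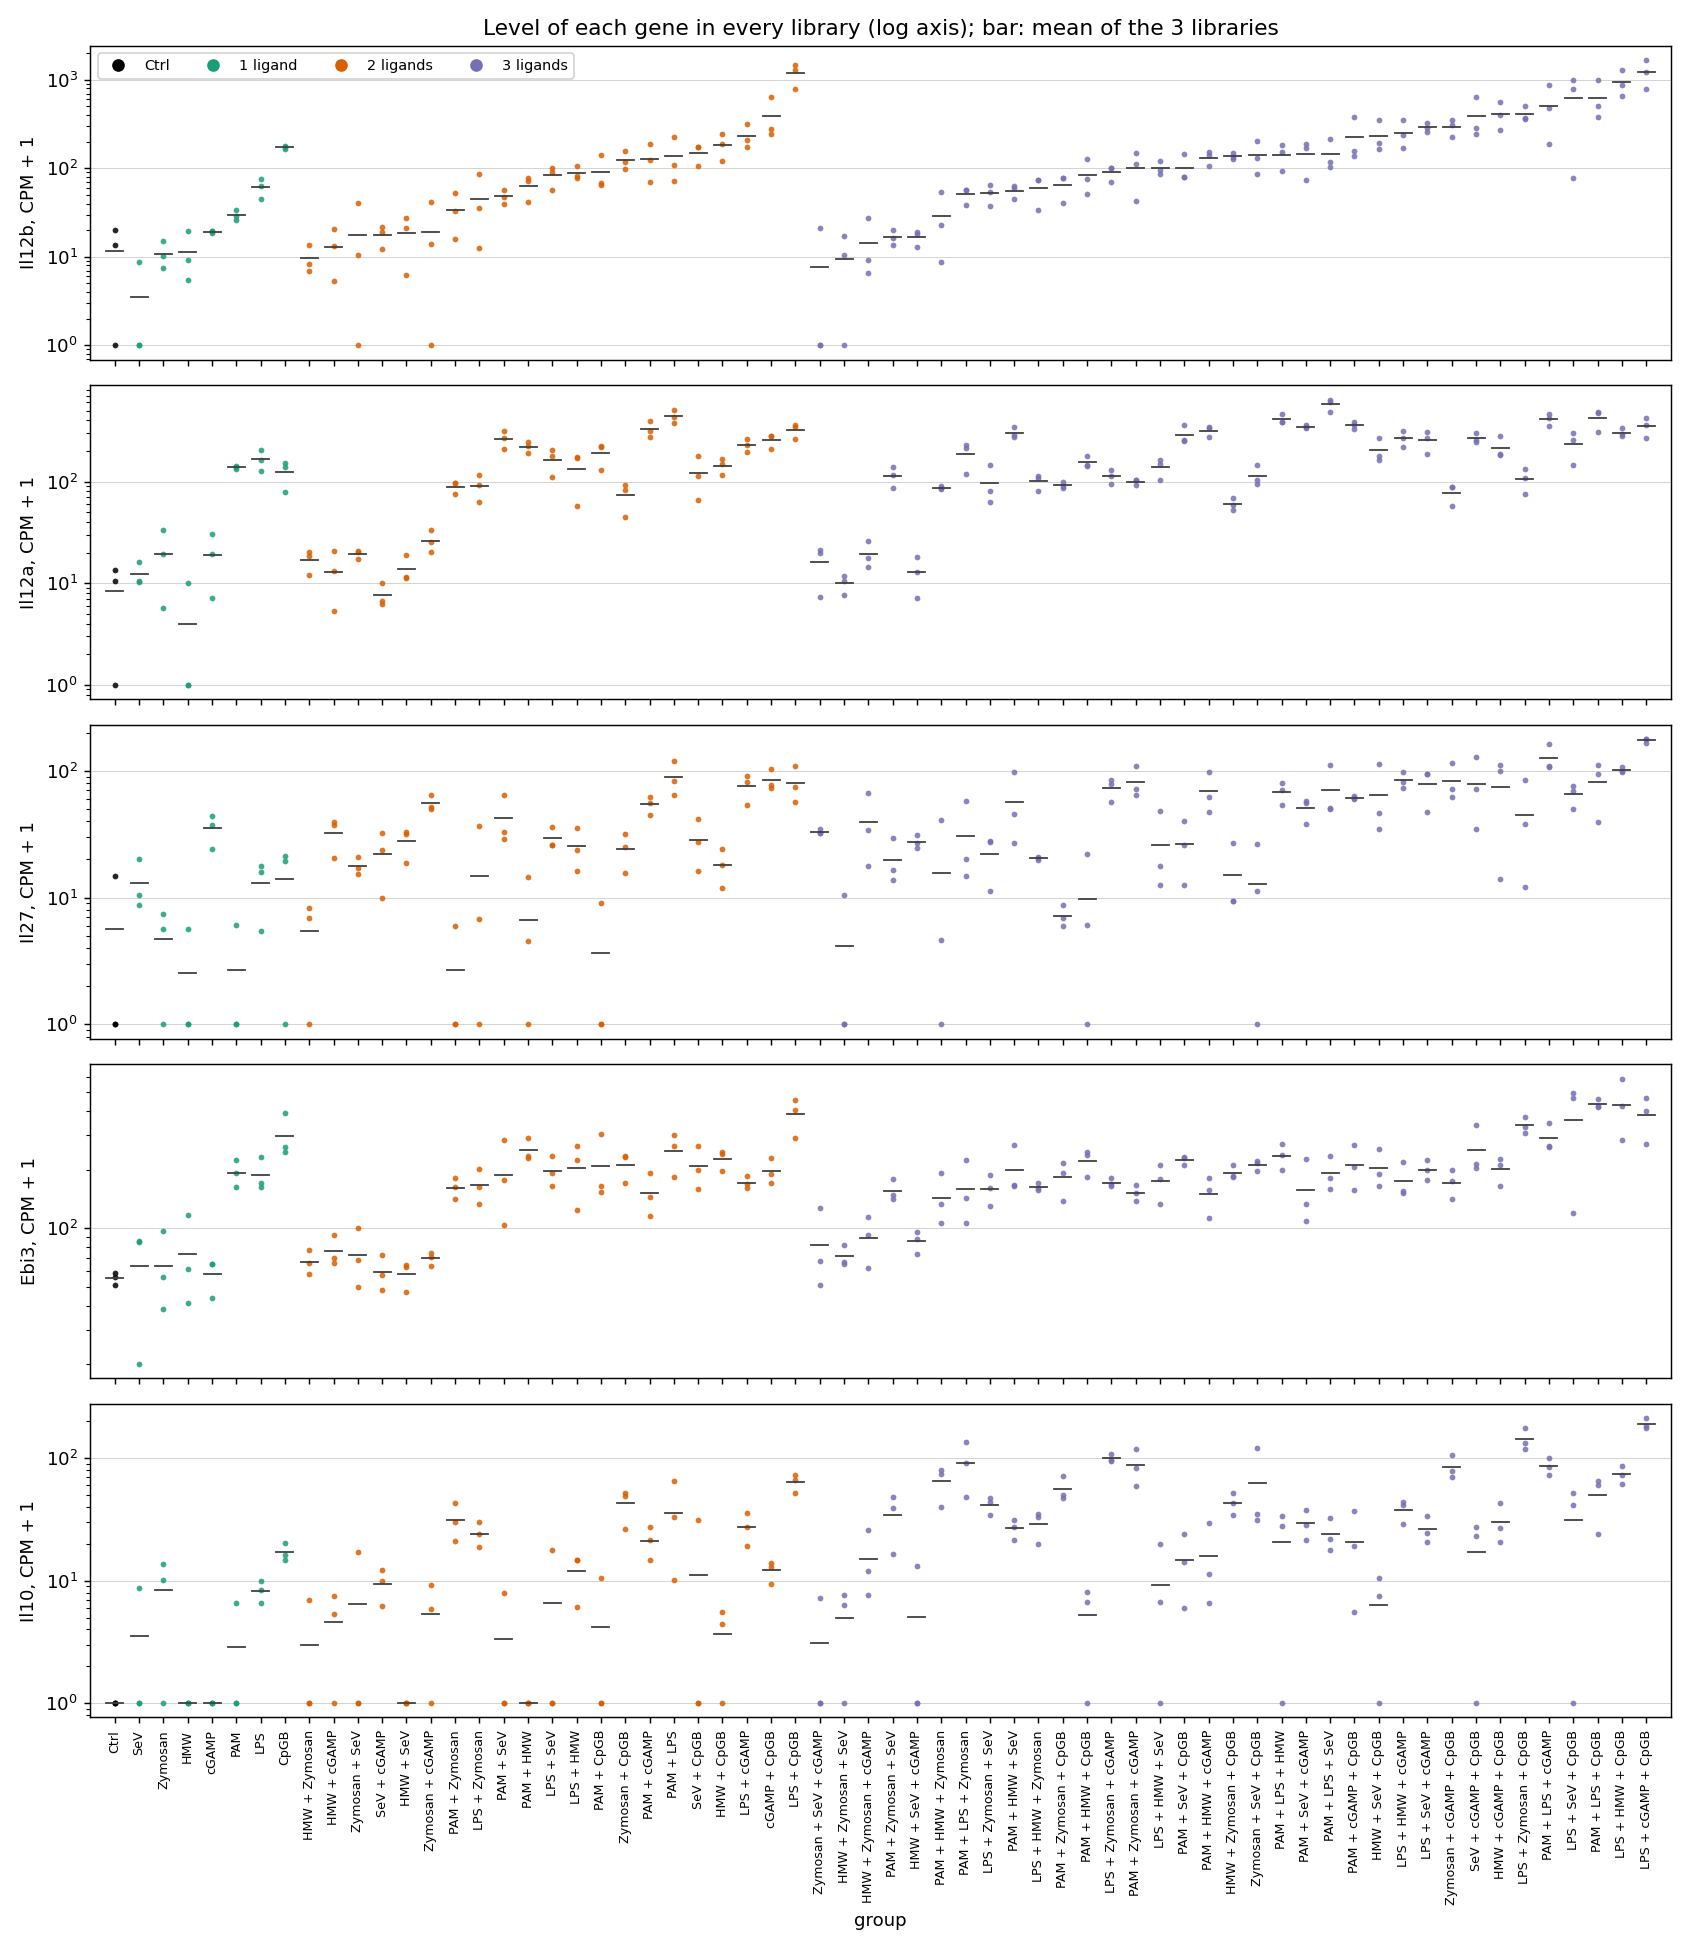
Level of 5 genes in every library, as CPM + 1 on a log axis, with groups on the horizontal axis ordered by number of ligands (Ctrl, 1, 2, 3) and then by the mean of Il12b; points are libraries and bars are means of 3. Il12a and Ebi3 fall into a low and a high set of groups, Il12b climbs to 1230 CPM in LPS + cGAMP + CpGB, and many Il27 and Il10 libraries sit at 0 counts.

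Il12b, the p40 chain common to IL-12 and IL-23, ranged over group means from 2.56 to 1230 CPM. LPS + cGAMP + CpGB held 1666, 791 and 1232 CPM in its 3 libraries, LPS + CpGB 1299, 1485 and 790 CPM, and LPS + HMW + CpGB 1294, 658 and 881 CPM. These 3 groups overlapped with each other. PAM + LPS + CpGB (628 ± 325 CPM) and LPS + SeV + CpGB (619 ± 482 CPM) followed. In the latter the library labelled replicate 3 was at 76.5 CPM against 784 and 997 CPM, and without it the mean was 891 CPM. Ctrl held 0, 12.47 and 19.2 CPM, from 3 counts. The ratio of LPS + cGAMP + CpGB to Ctrl was 104 (95% exact counting interval 35.5 to 508; log2 6.63, SE 0.60, adjusted p = 4.797e-21 by edgeR). The lowest groups were SeV (2.56 ± 4.43 CPM), Zymosan + SeV + cGAMP (6.70 ± 11.6; 10.05 without replicate 1, one of the 8), HMW + Zymosan + SeV (8.56 ± 8.12), HMW + Zymosan (8.64 ± 3.601) and Zymosan (9.87 ± 3.84), all overlapping with Ctrl. Zymosan + SeV (16.5 ± 20.8 CPM) was at 4.81 CPM without replicate 2, one of the 8 libraries, which would place it among them. Among single ligands, CpGB gave 165, 179 and 175 CPM, above all others without overlap. LPS gave 74.4, 44.3 and 62.6 CPM, PAM 28.6 ± 3.90 and cGAMP 18.1 ± 0.490 CPM, and none of these 3 was called (adjusted p = 0.099, 0.59 and 0.82). In the order of the 64 groups, each group overlapped with the next one down.

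Il12a, the p35 chain of IL-12, had another leading set. PAM + LPS + SeV was highest, with 639, 481 and 609 CPM, followed by PAM + LPS (510, 433 and 379 CPM; replicate 1 is one of the 8 libraries above, and the mean without it was 406 CPM). PAM + LPS + CpGB (421 ± 102 CPM), PAM + LPS + cGAMP (413 ± 57.6) and PAM + LPS + HMW (411 ± 47.4) came next, so the 5 highest groups all hold PAM and LPS. Ctrl held 0, 12.47 and 9.60 CPM, from 2 counts. The ratio of PAM + LPS + SeV to Ctrl was 74.2 (counting interval 20.3 to 616; log2 6.08, SE 0.47, adjusted p = 5.203e-27 by edgeR). Alone, LPS gave 164 ± 39.4, PAM 137 ± 3.74 and CpGB 123 ± 39.6 CPM, overlapping with each other. HMW (2.99 ± 5.18 CPM), SeV + cGAMP (6.61 ± 2.03), Ctrl (7.36 ± 6.53), HMW + Zymosan + SeV (8.97 ± 2.13) and SeV (11.4 ± 3.39) were lowest. The step between the 49 and the 14 groups was the only place in the order where neighbours did not overlap.

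Il23a, the p19 chain of IL-23, was the weak member. It had 84 counts in 51 libraries, 1 from single ligands, 9 from pairs and 74 from triplets. It was at 0 in Ctrl and in 32 of 63 stimulated groups. LPS + cGAMP + CpGB held 1, 1 and 6 counts (20.1 ± 19.3 CPM), PAM + LPS + cGAMP 3, 1 and 4 (17.7 ± 9.38 CPM) and LPS + HMW + CpGB 5, 2 and 0. PAM + HMW + SeV held 3, 1 and 3 counts and LPS + Zymosan + cGAMP 1, 1 and 2, so the 5 groups with the highest mean CPM are triplets. A count of 0 in Ctrl allows up to 3 counts there. The lower 95% exact counting limit of the ratio to Ctrl was 1.20 for LPS + cGAMP + CpGB and 0.990 for PAM + LPS + cGAMP, so a difference was not detectable for the latter at this depth. In a fit without the filter, edgeR called no group against Ctrl, with 3 at an unadjusted p below 0.05.

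Ebi3, the receptor-like chain of IL-27, was detected in every library and varied least. PAM + LPS + CpGB was highest (459, 422 and 419 CPM), followed by LPS + HMW + CpGB (585, 283 and 422), LPS + CpGB (289, 403 and 456), LPS + cGAMP + CpGB (398, 270 and 467) and LPS + SeV + CpGB (494, 464 and, in the library labelled replicate 3, 118 CPM; 479 CPM without it). Ctrl was the lowest group, with 55.4, 49.9 and 57.6 CPM. The ratio of PAM + LPS + CpGB to Ctrl was 7.89 (counting interval 4.601 to 14.7; log2 2.97, SE 0.36, adjusted p = 6.42e-13 by edgeR). CpGB alone gave 298 ± 78.8 CPM, PAM 191.7 ± 31.0 and LPS 187 ± 38.0, and those with CpGB did not overlap with the others. cGAMP (57.1 ± 12.3 CPM), HMW + SeV (57.2 ± 9.80), SeV + cGAMP (58.4 ± 12.3) and SeV (62.6 ± 37.7) lay beside Ctrl.

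Il27, which encodes p28, the chain that joins EBI3, had its own order. LPS + cGAMP + CpGB held 176, 165 and 177 CPM, above every library of the next group down, PAM + LPS + cGAMP (105, 107 and 163 CPM). LPS + HMW + CpGB (101 ± 4.20 CPM), PAM + LPS (87.6 ± 27.4; 99.5 without replicate 1, one of the 8 libraries) and LPS + HMW + cGAMP (83.3 ± 12.0) followed. HMW + cGAMP + CpGB held 73.8 ± 52.9 CPM. Without the library labelled replicate 1, also one of the 8, its mean was 104.2 CPM, which would place it above LPS + HMW + CpGB. Ctrl held 13.9, 0 and 0 CPM, from 1 count. The ratio of LPS + cGAMP + CpGB to Ctrl was 44.4 with a wide counting interval of 7.68 to 1779 (log2 5.22, SE 0.80, adjusted p = 8.828e-09 by edgeR). Of the single ligands cGAMP was highest (36.7, 23.4 and 43.0 CPM) and missed the threshold (adjusted p = 0.051), while CpGB, SeV and LPS stood at 12.96 ± 11.3, 12.1 ± 6.17 and 12.0 ± 6.57 CPM. HMW (1.55 ± 2.68 CPM), PAM + Zymosan (1.67 ± 2.88), PAM (1.68 ± 2.90), PAM + CpGB (2.67 ± 4.62) and HMW + Zymosan + SeV (3.17 ± 5.49) were lowest, at 1 or 2 counts each. PAM + HMW + Zymosan (14.5 ± 22.0 CPM) was at 1.83 CPM without replicate 1, one of the 8 libraries, which would place it among them. PAM and PAM + CpGB thus had high Ebi3 and almost no counts of its partner Il27, whereas Zymosan + cGAMP had 54.4 ± 7.48 CPM of Il27 and 68.9 ± 5.43 CPM of Ebi3, which was not called against Ctrl.

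Il10 was highest in the same triplet as Il12b, Il27 and Il23a. LPS + cGAMP + CpGB held 176, 183 and 212 CPM, LPS + Zymosan + CpGB 177, 133 and 118 CPM, and LPS + Zymosan + cGAMP 107, 94.1 and 95.1 CPM. The second of these did not overlap with the third. PAM + LPS + Zymosan (90.6 ± 43.2 CPM) and PAM + Zymosan + cGAMP (86.7 ± 30.5) came next, so that 4 of the 5 highest groups hold Zymosan. Ctrl, HMW, cGAMP, PAM + HMW and HMW + SeV had no count. Il10 in LPS + cGAMP + CpGB was at least 13.01-fold higher than in Ctrl by the lower 95% exact counting limit (16.4 times a floor of 3 counts summed over Ctrl), with an adjusted p of 5.995e-11 from edgeR. In LPS + Zymosan + CpGB it was at least 9.19-fold higher by the same limit (1.262e-08; 11.7 times the floor). Single ligands gave at most 16.2 ± 2.89 CPM, with CpGB.

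To ask what each ligand contributes, groups with a ligand were compared with the same groups without it, over 21 backgrounds of 1 or 2 other ligands. The first 4 genes below were tested by the mean difference over backgrounds (edgeR's quasi-likelihood test). That mean has no defined value for Il10, which is at 0 in some groups, and Il10 was tested with 1 effect shared by all backgrounds, a model added after seeing the counts.

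The 2 chains of IL-12 ranked the ligands differently. Adding CpGB raised Il12b most, from a mean of 50.9 to 383 CPM over backgrounds (log2 3.15, SE 0.13, adjusted p = 1.616e-59), with higher means in 21 of 21 backgrounds. LPS followed (72.9 to 347 CPM; log2 2.52, SE 0.14; 21 of 21), then cGAMP (122 to 233 CPM; 1.13, SE 0.21; 19 of 21) and PAM (135 to 139 CPM; 1.06, SE 0.17; 14 of 21). The PAM call was lost with a shared effect (log2 0.34, adjusted p = 0.072). For Il12a, PAM came first (93.0 to 271 CPM; log2 2.31, SE 0.078; 21 of 21), then LPS (99.0 to 254 CPM; 2.15, SE 0.080; 21 of 21) and CpGB (114 to 206 CPM; 1.78; 19 of 21), and cGAMP had a small effect (131 to 189 CPM; 0.45; 17 of 21). Adding Zymosan lowered Il12a (157 to 75.6 CPM; log2 fell by 0.54, SE 0.13, adjusted p = 0.0002254; lower in 16 of 21), though over the 6 backgrounds of a single ligand the difference was 0.11 (adjusted p = 0.749) and over the 15 of a pair -0.81 (2.714e-07). HMW and SeV passed for neither gene in this test, while with a shared effect Il12a was called higher with SeV (log2 0.22, adjusted p = 0.011). Il23a had too few counts for such a test. Pooled over backgrounds, it went from 6 to 46 counts on adding LPS (rate ratio 7.59, counting interval 3.23 to 21.7), from 5 to 37 with CpGB (7.54, 2.96 to 24.6), from 6 to 43 with PAM (6.71, 2.84 to 19.3) and from 9 to 40 with cGAMP (4.69, 2.24 to 11.0). It also went from 8 to 28 with SeV (3.70, 1.64 to 9.40), from 7 to 29 with HMW (3.28, 1.404 to 8.86) and from 10 to 17 with Zymosan (1.73, 0.747 to 4.22). All 7 ratios set pairs and triplets against singles and pairs, and triplets hold 74 of the 84 counts, so a ratio above 1 is not particular to a ligand. These intervals cover counting error only.

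The chains of IL-27 differed more. Il27 rose most on adding cGAMP (21.2 to 68.5 CPM; log2 2.20, SE 0.15, adjusted p = 4.563e-33; higher in 20 of 21 backgrounds), then LPS (22.7 to 64.8 CPM; 1.88; 20 of 21), CpGB (26.2 to 53.2 CPM; 1.13; 18 of 21) and SeV (29.7 to 37.3 CPM; 0.90; 12 of 21; not called over the 15 pair backgrounds, adjusted p = 0.0508). PAM was called at the margin (log2 0.52, adjusted p = 0.042) and was not without the 8 libraries above (0.142) or with RLE factors (0.0541). Ebi3 rose with CpGB (132 to 258 CPM; log2 1.14, SE 0.065; 20 of 21), LPS (140 to 248 CPM; 0.99; 19 of 21) and PAM (147 to 204 CPM; 0.70; 16 of 21). It was not called with cGAMP, the leading ligand for Il27, nor with SeV, HMW or Zymosan. With library size alone it was called lower with cGAMP (-0.17, adjusted p = 0.0271) and Zymosan (-0.17, 0.0386), and it was also lower with Zymosan with a shared effect (-0.21, 0.00228) and after thinning to the smallest total (-0.38, 0.00595).

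Il10 rose with 5 ligands in the shared model: LPS (8.27 to 52.7 CPM; log2 2.67, SE 0.17, adjusted p = 2.77e-29; 21 of 21), CpGB (9.38 to 45.2 CPM; 2.19; 20 of 21), Zymosan (11.0 to 45.6 CPM; 2.04, SE 0.16; 20 of 21), cGAMP (12.9 to 38.6 CPM; 1.60; 18 of 21) and PAM (12.0 to 33.6 CPM; 1.52; 17 of 21). HMW and SeV did not pass. In all, 16 of the 28 combinations of a ligand with Il12a, Il12b, Il27 or Ebi3 were called higher and 1 lower. Over all genes, adding a ligand was called higher for 19.9% (PAM), 28.7% (LPS), 7.61% (HMW), 20.4% (Zymosan), 19% (SeV), 27.4% (cGAMP) and 17.2% (CpGB) of tested genes and lower for 17.5%, 27.8%, 2.14%, 20.1%, 13.7%, 28.3% and 16.4% in the same order. In the shared model, the shares called higher were 26.1% for LPS, 14.4% for CpGB, 19.5% for Zymosan, 26.2% for cGAMP and 18.6% for PAM.

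**Figure D2:**
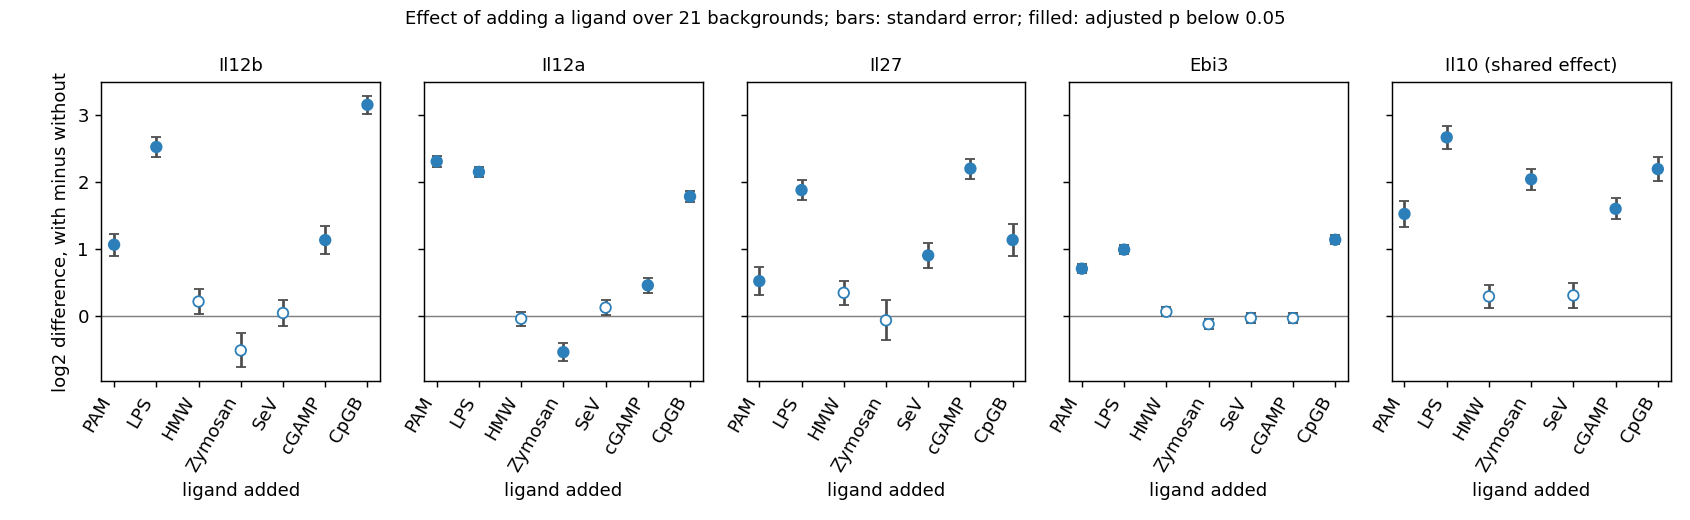
Log2 difference on adding each of 7 ligands (horizontal axis), with standard errors; filled points passed an adjusted p of 0.05. CpGB leads for Il12b (3.15), PAM for Il12a (2.31), cGAMP for Il27 (2.20), CpGB for Ebi3 (1.14) and LPS for Il10 (2.67), and Zymosan is negative for Il12a and positive for Il10.

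Zymosan moved Il12a and Il10 in opposite directions. In the presence of PAM and cGAMP, Il12a fell from 326 ± 58.9 to 98.7 ± 6.96 CPM on adding Zymosan (log2 fell by 1.72, adjusted p = 7.695e-08 by edgeR), while Il10 went from 20.2 ± 6.41 to 86.7 ± 30.5 CPM (adjusted p = 0.00786). With LPS and cGAMP, Il12a fell from 228 ± 34.6 to 112 ± 17.8 CPM and Il10 rose from 26.3 ± 8.27 to 98.7 ± 7.06 CPM. Taken one background at a time, Il12a was called lower in 10 of 21 and higher in none, and Il10 higher in 10 of 21 and lower in none. Over all genes, 1.91% of such comparisons with Zymosan were called lower and 3.91% higher. On the log2 scale, the largest falls of Il12a came with cGAMP + CpGB (257 ± 41.1 to 76.9 ± 17.6 CPM), PAM + cGAMP and LPS + CpGB (322 ± 55.2 to 105 ± 29.0 CPM). The 5 backgrounds in which Il12a had a higher mean with Zymosan (HMW, SeV, cGAMP, HMW + cGAMP and SeV + cGAMP) hold none of PAM, LPS and CpGB. For Il10, PAM + HMW went from no count to 79.7, 38.9 and 73.2 CPM (adjusted p = 1.525e-08; 1.32e-07 without the first, one of the 8 libraries), and HMW + CpGB from 2.67 ± 2.39 to 42.3 ± 9.05 CPM (ratio 15.1, counting interval 3.75 to 132). The 1 background with a lower mean was SeV + cGAMP, at 8.49 CPM without and 2.10 CPM with Zymosan, not called. Il12b was called lower with Zymosan on LPS + CpGB (1191 ± 360 to 414 ± 79.5 CPM, adjusted p = 3.154e-05) and in no other background, and its mean was lower in 18 of 21. Averaged over backgrounds its change did not pass (log2 -0.52, adjusted p = 0.093), but it passed with a shared effect (-0.72, 3.414e-10) and without the 8 libraries (0.044).

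**Figure D3:**
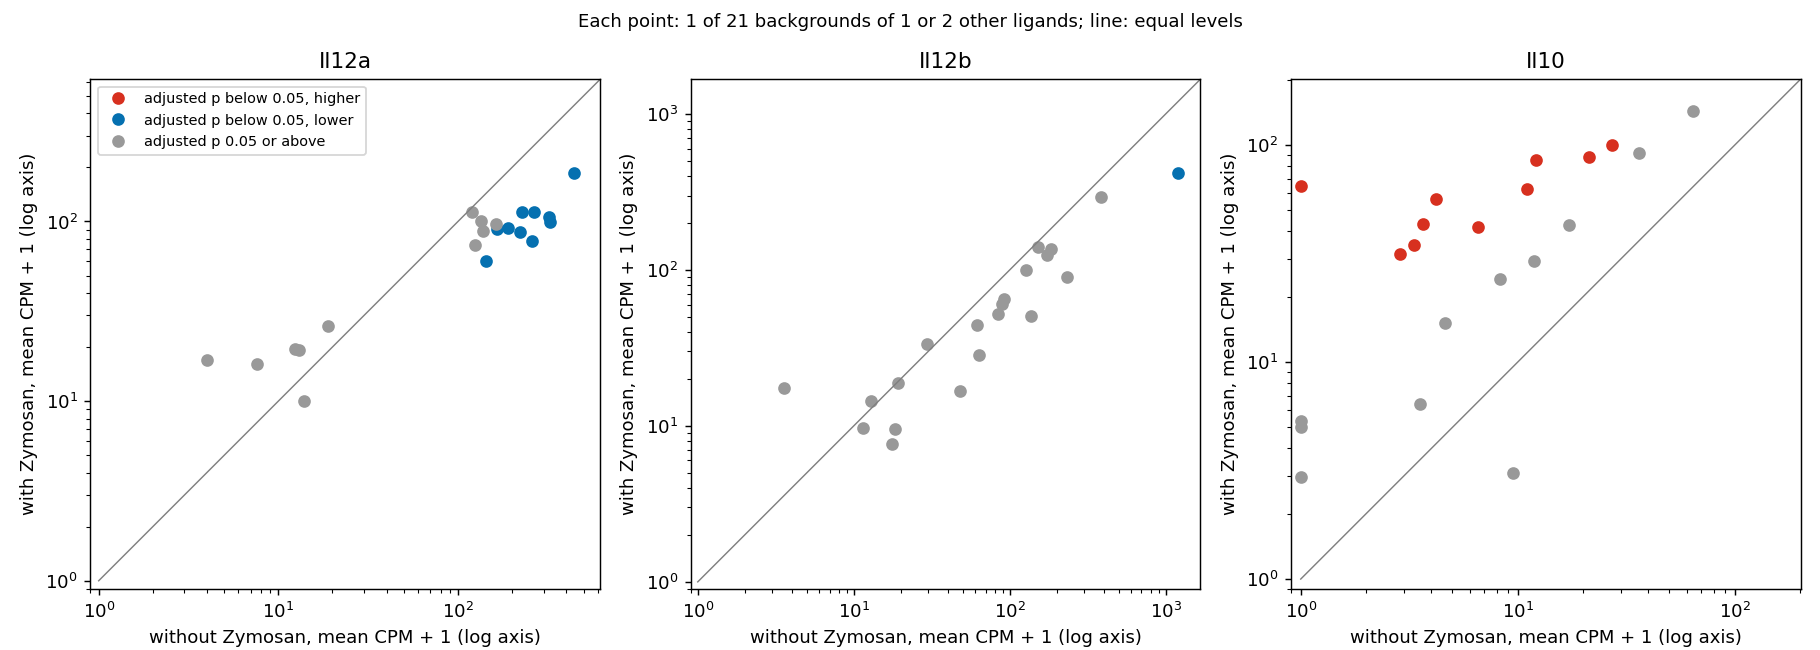
Mean level with Zymosan (vertical axis) against the same background without it (horizontal axis), both as CPM + 1 on log axes, for Il12a, Il12b and Il10; each point is 1 of 21 backgrounds and the line marks equal levels. Il12a points above 100 CPM lie below the line, 10 of them called, while 20 of 21 Il10 points lie above it.

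PAM had opposite directions on Il12b by background. Where CpGB was absent, PAM went with a higher mean in 14 of 15 backgrounds, for example from 18.1 ± 0.490 to 126 ± 58.5 CPM on cGAMP (adjusted p = 0.00376 by edgeR), from 12.0 ± 7.60 to 131 ± 23.7 CPM on HMW + cGAMP (3.549e-05) and from 16.7 ± 4.94 to 143 ± 61.5 CPM on SeV + cGAMP (0.000129). Where CpGB was present, the mean was lower in all 6 backgrounds, for example 173 ± 7.14 to 90.5 ± 43.5 CPM on CpGB alone and 1191 ± 360 to 628 ± 325 CPM on LPS + CpGB. Over all genes, 3.95% of such comparisons with PAM were called higher and 2.35% lower. None of the 6 passed by itself, though 2 did without the 8 libraries above, on LPS + CpGB (log2 -0.97, adjusted p = 0.00272) and on HMW + CpGB (-1.18, 0.0459).

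This dependence was tested as an interaction, the effect of a ligand with a second ligand present minus its effect without, averaged over the 5 possible additional ligands. The test was added after seeing the levels, and covers 4 genes and 21 pairs of ligands. Of the 84 tests, 14 were called lower and 0 higher. Over all genes 5.63% were called lower and 1.84% higher. Several backgrounds without the second ligand lie near the floor: Il12b had 1 count with SeV, 5 with Zymosan, 6 with HMW and 8 with cGAMP. A rise from so few counts is large and imprecise on the log2 scale. A negative difference therefore does not by itself show that 1 ligand opposes the other. For Il12b, the log2 effect of PAM was 2.32 without CpGB and -0.89 with it, a difference of -3.21 (SE 0.46, adjusted p = 1.281e-09 by edgeR), and the effect of PAM also shrank with LPS (1.95 to 0.39; difference -1.56, adjusted p = 0.0187). For Il12a the effect of PAM went from 3.61 to 0.49 with CpGB (difference -3.12, SE 0.24, adjusted p = 1.507e-27) and from 3.44 to 1.15 with LPS, and that of LPS went from 3.26 to 0.79 with CpGB. Ebi3 did likewise: 1.31 to 0.012 for PAM with CpGB (difference -1.30, adjusted p = 1.703e-09) and 1.12 to 0.21 for PAM with LPS. The fall of Il12a on adding Zymosan also depended on what else was given. Zymosan had a log2 effect of 0.26 without PAM and -1.32 with it, 0.32 without LPS and -1.01 with it, and 0.29 without CpGB and -1.17 with it (adjusted p = 7.159e-05, 0.00159 and 0.000634 for the differences). Without replicate 3 of every group the last 2 were not called (0.214 and 0.155).

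Il27 had a different set of interactions. Several backgrounds without cGAMP held few Il27 counts, with 1 on PAM, 1 on HMW and 2 on Zymosan. The effect of SeV was 2.28 without cGAMP and -0.24 with it, a difference of -2.52 (SE 0.48, adjusted p = 6.354e-06). LPS raised Il27 by 2.73 without SeV and by 0.81 with it, and by 2.76 without cGAMP and 1.14 with it (differences -1.92 and -1.62, adjusted p = 0.0012 and 0.00303). Taken one background at a time, SeV took Il27 from 1.68 ± 2.90 to 41.1 ± 19.1 CPM on PAM (ratio 22.3, counting interval 3.50 to 933, from 1 to 17 counts) and from 5.65 ± 6.96 to 55.8 ± 37.0 CPM on PAM + HMW. A further call, SeV on HMW + CpGB (17.0 ± 6.03 to 63.4 ± 41.8 CPM), rested on the library labelled HMW + SeV + CpGB replicate 1, at 111 CPM against 33.6 and 45.4 CPM, and was lost without the 8 libraries (adjusted p = 0.298). cGAMP took Il27 from 1.67 ± 2.88 to 81.2 ± 24.0 CPM on PAM + Zymosan and from 3.69 ± 3.31 to 54.4 ± 7.48 CPM on Zymosan, and was called in 13 of 21 backgrounds, of which none holds SeV. Over all genes, 7.54% of such comparisons with cGAMP and 3.7% of those with SeV were called higher. The PAM and CpGB interaction of Il27 was marginal (difference -1.85, adjusted p = 0.0497; 0.0514 with RLE factors). All 14 interactions were also called without the 8 libraries.

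**Figure D4:**
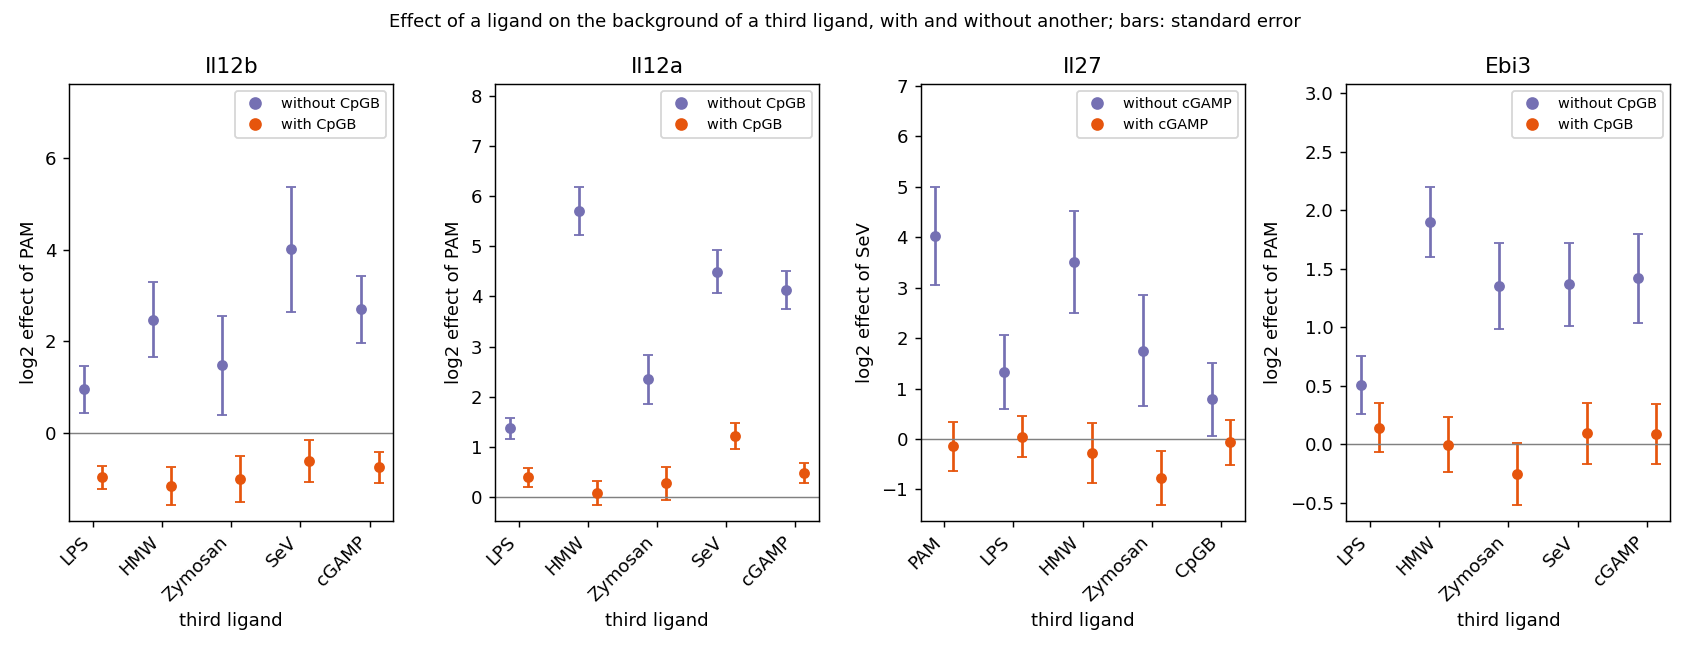
Log2 effect of PAM on Il12b, Il12a and Ebi3 with and without CpGB, and of SeV on Il27 with and without cGAMP, on the background of each of 5 additional ligands; bars are standard errors. For Il12b all 5 effects of PAM with CpGB lie below 0 and all 5 without it above 0, and for the other genes the effects with the second ligand lie lower in all 5 backgrounds.

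To find combinations beyond their parts, pairs were compared with both of their single ligands and triplets with all 3 of their pairs, requiring at least a doubling over each. Of 105 gene-by-pair comparisons, 7 were called above both, beside 0.353% over all genes. Il12b was called in LPS + CpGB (1191 ± 360 CPM against 173 ± 7.14 with CpGB; smallest log2 2.76, adjusted p = 1.632e-13 by edgeR), LPS + cGAMP (231 ± 74.7 against 60.5 ± 15.2 with LPS; 1.88) and PAM + cGAMP (126 ± 58.5 against 28.6 ± 3.90 with PAM; 2.08). Il12a was called in PAM + LPS (441 ± 65.8 against 164 ± 39.4 CPM; 1.37) and PAM + cGAMP (326 ± 58.9 against 137 ± 3.74 CPM; 1.25). Il27 was called in PAM + LPS (87.6 ± 27.4 against 12.0 ± 6.57 CPM; 2.92) and LPS + CpGB (79.3 ± 26.5 against 12.96 ± 11.3 CPM; 2.37). Both IL-12 chains were thus called in PAM + cGAMP, but neither with library size alone (Il12a smallest log2 0.93, under the doubling; Il12b adjusted p = 0.0915), and Il12b in LPS + cGAMP was not called with DESeq2 (0.0513). Some calls were lost with fewer libraries per group. Il12b in LPS + cGAMP and PAM + cGAMP was not called by edgeR without replicate 1 (adjusted p = 0.0951 and 0.233) or replicate 2 (0.172 and 0.199). Its smallest log2 was then 1.745 and 1.85, or 1.697 and 1.98. Il27 in PAM + LPS and LPS + CpGB was not called without replicate 3 (0.0524 and 0.429), at a smallest log2 of 2.52 and 1.99. Ebi3 was called in no pair. Without the 8 libraries the calls were 10, with Il12b in cGAMP + CpGB and Il10 in PAM + LPS and in LPS + CpGB added. Of 175 gene-by-triplet comparisons, 1 was called: Il10 in LPS + cGAMP + CpGB, with 176, 183 and 212 CPM against 63.01 ± 10.9 CPM in LPS + CpGB, its highest pair (smallest log2 1.61, adjusted p = 0.042; background 0.0115%). The call was lost with RLE factors (adjusted p = 0.060), with library size alone (0.051), with DESeq2 (0.17), without the filter on low counts (0.097) and without any 1 of the 3 replicate numbers. Il12b in PAM + LPS + cGAMP (smallest log2 1.23, adjusted p = 0.547) was called without the filter (4.252e-05) and without the 8 libraries (0.0129).

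Some ligands were also compared as replacements of each other over 16 shared backgrounds, with 1 shared effect, in 3 pairs chosen after the levels were seen. cGAMP in place of SeV went with more Il12b (112 to 253 CPM; log2 1.20, SE 0.12, adjusted p = 3.431e-16 by edgeR; higher in 15 of 16), more Il27 (32.0 to 74.3 CPM; 1.12; 16 of 16), more Il10 (17.1 to 45.4 CPM; 1.27; 13 of 16) and slightly more Il12a (0.25, adjusted p = 0.0042). Ebi3 did not pass (-0.02, SE 0.07). Zymosan in place of PAM lowered Il12a from 322 to 59.0 CPM (log2 -2.48, SE 0.10; lower in 16 of 16), lowered Il12b (-0.97), Il27 (-0.87) and Ebi3 (-0.68), and raised Il10 from 21.7 to 37.7 CPM (0.65, adjusted p = 0.0061; higher in 11 of 16). CpGB in place of LPS raised Il12b (0.52) and Ebi3 (0.17) and lowered Il12a (-0.41), Il27 (-0.49) and Il10 (-0.45). Shares of all genes called higher and lower were 15.9% and 18% for the first exchange, 21.2% and 19.7% for the second and 21.5% and 20.9% for the third.

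The genes whose pattern over the 64 group means of log2 CPM was most like that of a member were listed as a description. Points share the libraries' depth and ligands, so no p is given. For Il12a they were Il6 (r = 0.958), Nfkb2 (0.940), Traf1 (0.933), Nfkb1 (0.925) and Tnfaip2 (0.914). For Il12b they were Dusp2 (0.901), Lta (0.882), Ebi3 (0.869), Mllt6 (0.867) and Batf (0.835). Ebi3, whose promoter is shown above beside that of Il12b, was closest to Batf (0.925), Ccl22 (0.918), Pik3r5 (0.903), Gng12 (0.896) and St3gal1 (0.891). Il27 was closest to Sec24b (0.872), Sdc4 (0.864), Gypc (0.839), Kynu (0.832) and Irf8 (0.830), and Il10 to Dusp1 (0.829), Ppfia1 (0.810), Il1rn (0.793), Edn1 (0.790) and Stat5a (0.786). With ranks in place of values, 2 or 3 of each 5 remained in the list. Between members, r was 0.869 for Il12b and Ebi3, 0.853 for Il12a and Ebi3 and 0.781 for Il12a and Il12b. It was 0.428 for the IL-27 chains Il27 and Ebi3, and 0.445 for Il12a and Il10.

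The rest of the pathway was read from lists, on adding a ligand over 21 backgrounds. Counts below are to be read against the shares of all genes called: 28.7% higher and 27.8% lower with LPS, 27.4% and 28.3% with cGAMP, 20.4% and 20.1% with Zymosan, 19.9% and 17.5% with PAM, 19% and 13.7% with SeV, 17.2% and 16.4% with CpGB and 7.61% and 2.14% with HMW. The median over all genes was between -0.040 (cGAMP) and 0.017 (HMW). Of 7 receptor chains only Il10ra and Il10rb, the chains of the IL-10 receptor, had counts enough to be tested. Il10rb rose with PAM (log2 0.46, adjusted p = 7.873e-17 by edgeR), LPS (0.36) and Zymosan (0.27) and fell with cGAMP (-0.13, adjusted p = 0.0185). Il10ra fell with Zymosan (-0.53), cGAMP (-0.30) and PAM (-0.22) and rose with SeV (0.28). Of 8 transducers 7 were tested, and 4 rose and 1 fell with PAM, 6 rose with LPS, 5 with SeV and 5 with CpGB, while Zymosan gave 3 and 2 and cGAMP 5 and 1. The transducer with the largest rise was Socs3, a feedback inhibitor of cytokine signalling, with PAM (1.63), LPS (1.55), CpGB (1.43) and Zymosan (0.83). It was Socs1 with SeV (0.90) and Stat3, which carries the IL-10 signal, with cGAMP (0.38), although Stat3 itself rose more with LPS (1.01) and PAM (0.46). Tyk2, a kinase of the IL-12 and IL-10 receptors, fell with Zymosan (-0.58), PAM (-0.49) and cGAMP (-0.24). The median over the 7 was 0.84 for LPS, 0.40 for PAM, 0.27 for SeV, 0.17 for CpGB, 0.14 for cGAMP and 0.035 for Zymosan.

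Of 13 transcription regulators, 11 were tested. With LPS 7 rose and 1 fell, with PAM 6 and 3, with SeV 7 and 1, with cGAMP 7 and 2, with CpGB 7 and 2, with Zymosan 2 and 2 and with HMW 3 and 0. The count with Zymosan was near the share over all genes. With a shared effect 1 regulator, Nfkb1, was called with HMW, and among the transducers 3 rose with cGAMP and 3 with CpGB. The median over the 11 was 0.44 for LPS, 0.33 for cGAMP, 0.24 for PAM, 0.23 for CpGB, 0.21 for SeV, 0.069 for HMW and -0.024 for Zymosan. The regulator with the largest rise was Nfkbiz, a nuclear cofactor of NF-kB needed for part of the Il12b response, with CpGB (log2 1.72) and PAM (1.27), and Irf8, a factor of IL-12 induction, with LPS (1.11). It was Irf1 with cGAMP (0.99) and SeV (0.71), Cebpb with Zymosan (0.77) and Nfkb1 with HMW (0.13), although Nfkb1 itself rose more with PAM (0.62), CpGB (0.52) and LPS (0.52). The regulator with the largest fall was Maf, an activator of Il10, with Zymosan (-0.91) and cGAMP (-0.71), where Il10 was called higher. Maf rose with CpGB (0.96; 0.75 with a shared effect). With LPS and SeV it was called (0.24 and 0.21), but not with a shared effect (9.752e-05 and 0.18, adjusted p = 0.998 and 0.121). The largest fall was that of Batf3 with PAM (-0.47), of Irf5 with CpGB (-0.25) and LPS (-0.12) and of Cebpb with SeV (-0.12), and Irf5 also fell with PAM (-0.35) and Zymosan (-0.23). Of 7 genes known to respond to IL-10, 6 were tested. All 6 rose with Zymosan and with LPS, 5 with PAM and with CpGB, 3 with SeV, 3 with cGAMP and 1 with HMW, and Etv3 fell with PAM (-0.45) and 2 genes with cGAMP, Il4ra most (-0.60). Il1rn, the IL-1 receptor antagonist, had the largest rise of the list with Zymosan (1.20), cGAMP (0.80), SeV (0.44) and HMW (0.14), and itself rose most with LPS (1.28). The median over the 6 was 0.48 for LPS, 0.46 for CpGB, 0.41 for PAM, 0.37 for Zymosan, 0.066 for SeV, 0.020 for HMW and -0.0077 for cGAMP.

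Marker genes were read to check the label and the cells present. Itgax, H2-Ab1, Cd74, Ccl22 and Ccr7 of the dendritic cell list had counts in every library, whereas Zbtb46, Flt3 and Cd209a of the same list had 99, 95 and 3 counts in all. The summed dendritic cell list ran from 3058 CPM (HMW + cGAMP) to 5604 CPM (PAM + LPS + cGAMP), with 3068 CPM in Ctrl. The macrophage and monocyte list, of which 5 genes were used and Lyz2 was most abundant, ran from 12312 CPM in PAM + HMW down to 6912 CPM in LPS + cGAMP + CpGB, the group where Il12b, Il27, Il10 and Il23a peaked, with 11561 CPM in Ctrl. Neutrophil markers summed to 476 to 924 CPM. B cell markers reached at most 18.7 CPM and T and NK cell markers 2.17 CPM, with Pax5 and Cd3e at 0. Plasmacytoid markers summed to 21.2 to 233 CPM, mostly from Tcf4, with 35 counts of Siglech and 89 of Ccr9 in all libraries. Mast cell and basophil markers reached 8.73 CPM. Single markers varied widely between groups: group means ran from 136 to 1540 CPM for Ccl22, 196 to 790 for Ccr7, 223 to 2754 for Cd14 and 417 to 1718 for Csf1r. A shift of a sum is thus not a measure of cell numbers. The part of such shifts in the levels of the 6 genes was not tested.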

How the data were processed

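Total RNA of 64 groups of 3 stimulated or unstimulated wells was reverse transcribed with a template switch, pooled and sequenced, per the labels' protocols. The authors deposited 1 table of raw UMI counts per gene and library. The submitters' processing notes name BWA 0.7.15 and mm10; the annotation, the counting program and its use of strand are not given in the sources used here. Every column matched the title of 1 library.

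From these counts, genes with enough counts for their group were kept (filterByExpr, 4720 of 23481), and TMM factors and 1 quasi-likelihood model with 64 group terms were fitted in edgeR 4.0.16 (R 4.3.3). P-values were adjusted by the Benjamini-Hochberg method over all tested genes within a comparison. Intervals of ratios are exact binomial at 95% and cover counting error only. Total counts of 46564 to 610234 per library limit weak genes: a count of 0 allows up to 3 counts. The alternatives were RLE factors, library size alone, no filter, DESeq2 1.42.0, thinning, the replicate number as a block and each replicate left out. Those added after seeing the data were the shared-effect model (used for Il10, where the planned mean over backgrounds has no defined value), replacements, interactions and fits without the 8 libraries apart from their group.

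The 6 genes, the pathway lists and the markers were chosen with earlier results of these data known. Named beside them are, by rule, the 5 highest and 5 lowest groups of each member, the 5 genes of highest r with it, and in each list the gene with the largest called rise and fall for each ligand; 1 result of the transducer list is not reported here. Promoters are RefSeq's; other positions are from the GENCODE annotation of GRCm38.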

Additional observations from a re-analysis of the deposited data

Results flagged for a closer look

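A ligand's effect on a gene differed with a second ligand present in 14 tests of the difference itself (edgeR's quasi-likelihood test, adjusted over all genes), each over 5 additional ligands. Differences are on the log2 scale, effect with minus effect without the second ligand. For Il12b they were -3.213 for PAM with CpGB and -1.56 for PAM with LPS. For Il12a they were -3.123 for PAM with CpGB, -2.473 for LPS with CpGB, -2.291 for PAM with LPS, -1.576 for PAM with Zymosan, -1.456 for Zymosan with CpGB and -1.323 for LPS with Zymosan. For Il27 they were -2.524 for SeV with cGAMP, -1.915 for LPS with SeV, -1.848 for PAM with CpGB and -1.624 for LPS with cGAMP. For Ebi3 they were -1.296 for PAM with CpGB and -0.9098 for PAM with LPS. All 14 kept their sign and call without the 8 libraries apart from their group. The Il27 call for PAM with CpGB was lost with RLE factors (adjusted p = 0.0514 by edgeR), library size alone (0.0612), no filter (0.0869) and without replicate 2 (0.195). Without replicate 3, the Il12a calls for LPS with Zymosan and Zymosan with CpGB were lost (0.214 and 0.155). Several effects without the second ligand start from few counts, as given above. Groups of 3 libraries were too small to be searched for single outlying values.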

How the results depend on the processing

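Of 126 results, 1154 values were computed under alternatives. Among those of single genes, 779 kept their direction and call, 35 lost the call, 19 gained one, 19 moved by more than the spread and 14 changed sign, and of counts of calls for 1 gene 157 stayed within 1.5 times, 19 were lower and 4 higher; none of the 14 passed the threshold both ways. The 197 calls against Ctrl became 117 when all libraries were thinned to 46564 counts, where Il27 and Il10 no longer passed the filter on low counts, and 168 to 195 without 1 replicate number. The 7 calls of pairs above both single ligands became 2 when thinned and 5 to 6 without 1 replicate number. The single triplet call became 0 with RLE factors, library size alone, DESeq2, thinning or without any replicate number, and 2 without the 8 libraries apart from their group. The single lower call on adding a ligand became 3 with library size alone or a shared effect (with or without the 8 libraries), 2 without the filter, with DESeq2, without the 8 libraries or over the 15 pair backgrounds, and 0 over the 6 single-ligand backgrounds. Beyond thinning, which removes counts, and smaller sets of samples, the cause was not tested.

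Sign changes on adding a ligand, in log2, were as follows. Over the 6 single-ligand backgrounds, Zymosan gave 0.11 for Il12a, 0.093 for Il12b and 0.61 for Il27. Over the 15 pair backgrounds, SeV gave -0.039 for Il12b and cGAMP 0.0085 for Ebi3. Il12b with SeV was -0.027 with library size alone. When thinned, HMW gave 0.032 for Il12a and -0.0022 for Ebi3. A shared effect of HMW gave 0.027 for Il12a, and 0.028 without the 8 libraries. Ebi3 with SeV was 0.00013 without the 8 libraries. Without 1 replicate number, values ran from -0.11 to 0.11 for Il12a with HMW, -0.12 to 0.038 for Ebi3 with SeV and -0.13 to 0.031 for Ebi3 with cGAMP.

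Against Ctrl, the median log2 of all genes shifted by -0.16 with RLE factors or DESeq2 and by -0.36 with library size alone. Relative to that shift the calls were 194, 190 and 185. With the replicate number as a block they were 199, and no other count moved (16 and 1 on adding a ligand, 7 pairs, 1 triplet, 14 interactions). Deviations from group means had a mean r of 0.0083 for libraries of the same number and -0.0041 for others. The lowest of the 6048 values for the same number was -0.29, which does not decide whether the numbers pair the samples. On average, 167 libraries correlated best with their own number and the others did not, a hint in the data, not the design, of a small effect tied to the number. Averaged tests of a ligand or of an interaction had no defined value for every gene when thinned or without replicate 2 or 3, so counts of those calls were not computed there. Depth limits Il23a, Il27 and Il10 most: in Ctrl they rest on 0 or 1 count.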
